A study of Xenopus laevis with 12 samples.

Results

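Forkhead transcription factors share a winged-helix DNA-binding domain and are grouped into subfamilies named by letter, from foxa onwards. The members were the probe sets annotated with a single gene whose symbol starts with fox, a letter from a to s and a number, with the probe set of highest mean taken for each symbol. This gave 21 forkhead symbols in 12 subfamilies, from 24 probe sets, among 7531 gene symbols on the array. A RefSeq gene table of this frog lists 81 symbols of this pattern, so most of the family has no member here. Another 2 probe sets list several forkhead symbols each and were left out of the members.

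Each sample was 1 whole Xenopus laevis embryo, a frog, taken at stage 11.5, late in gastrulation, and hybridised to its own 1-colour Affymetrix expression array. The control group held 6 embryos given mRNA of GFP, a jellyfish fluorescent protein, and the other group 6 embryos given Nkx2-5 mRNA with GFP mRNA, so all 12 carried GFP mRNA. Injection was at the 8-cell stage, and the labels used here do not say which blastomeres received it. Nkx2-5 is a homeodomain factor best known from the forming heart, and the comparison asks which transcripts differ when its mRNA is supplied before gastrulation. The labels name a single experiment and do not say whether the embryos share parents, so p-values reflect only how these embryos vary.

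Forkhead factors stand near the head of germ layer formation in the frog. Foxh1 is the DNA-binding partner of activated Smad2 in Nodal signalling. Foxa factors mark the organizer, midline and endoderm, foxi factors act in ectoderm, foxd factors in neural precursors and neural crest, and foxc and foxf factors in mesoderm. In whole embryos, fewer cells of a type and less RNA per cell cannot be told apart. Many genes of this frog have a pair of copies (homeologs, suffixes .L and .S), and each counted here as its own symbol.

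Values are MAS5 signals in arbitrary units, and differences are of log2(signal + 16), Nkx2-5+GFP minus GFP, unless said otherwise. They were fitted with limma over 15491 probe sets, with Benjamini-Hochberg adjustment over all of them, and a probe set was called at an adjusted p under 0.05. Of the pair of nkx2-5.S probe sets, that of larger difference had signals from 57.4 to 138 in GFP and from 122 to 233 in Nkx2-5+GFP embryos, and 5 of the 6 Nkx2-5+GFP embryos lay above every GFP embryo (log2 difference 0.77, limma adjusted p = 0.0431). That call was lost in 11 of 20 alternatives, among them the removal of any embryo other than GFP embryos 1, 4 and 5 and Nkx2-5+GFP embryo 5. For the other nkx2-5.S probe set limma gave 0.52 and missed the threshold (limma adjusted p = 0.0731). The labels do not say whether the injected mRNA holds this part of the transcript. Markers of each germ layer were present, among them krt12.4.L of epidermis, sox2.L of neural plate, tbxt.S of mesoderm and sox17b.1.S of endoderm, at mean GFP signals of 1528, 464, 7781 and 2879. The epidermal marker tp63.L was dim, at 20.1. Between groups, krt12.4.L differed by 1.16 and passed (limma adjusted p = 0.0015). sox2.L, tbxt.S and sox17b.1.S differed by 0.33, 0.08 and -0.33 and did not pass. The beta-actin 3' to 5' signal ratio, a measure of RNA integrity and labelling, ran from 2.81 to 4.27 in GFP and from 2.68 to 3.33 in Nkx2-5+GFP embryos (2-sided exact permutation p = 0.154). The gapdh ratio ran from 23.0 to 47.3 and from 18.6 to 33.5 (2-sided exact permutation p = 0.292), and the part of either ratio in the results was not tested.

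No forkhead symbol passed the adjusted test, 0 of 21, where limma called 6.38% of all probe sets, 3.12% as higher and 3.26% as lower. The lowest limma adjusted p among the members was 0.0700, for foxa1.S. Without GFP embryo 5, 2 symbols passed, and 1 passed without GFP embryo 4, Nkx2-5+GFP embryo 5 or Nkx2-5+GFP embryo 6. Calls over all probe sets, 483 higher and 505 lower with every embryo, also moved in these fits. They were 700 and 784 without GFP embryo 5, and 643 and 842 without Nkx2-5+GFP embryo 5. They were 272 and 191 without GFP embryo 4, and 267 and 243 without Nkx2-5+GFP embryo 6. Whether the forkhead passes exceed this array-wide change was not tested. At an unadjusted p under 0.05 stood 9 of the 21, or 42.9%, beside 24.3% of all probe sets. Of these, 7 were higher and 2 lower in Nkx2-5+GFP embryos, against 10.9% and 13.3% of all probe sets. The higher ones were foxa1.S, foxa4.L, foxb1.S, foxc2.S, foxd3.L, foxf1.L and foxi1.L, and the lower ones foxi4.2.S and foxd4l1.2.L. A miss after adjustment does not show that a transcript was unchanged, and intervals are given for each member described.

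The groups overlapped in every member, beside 2.99% of all probe sets without overlap, and 0 members reached an absolute log2 difference of 1, beside 1.12%. The median difference of the 21 was 0.09, against -0.02 over all probe sets, and 14 of the 21 differences were above 0, beside 47.7%. The size of the difference without its sign had a median of 0.18 in the members and 0.19 over all probe sets. The 12 other members had 95% intervals that include 0.

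**Figure D1:**
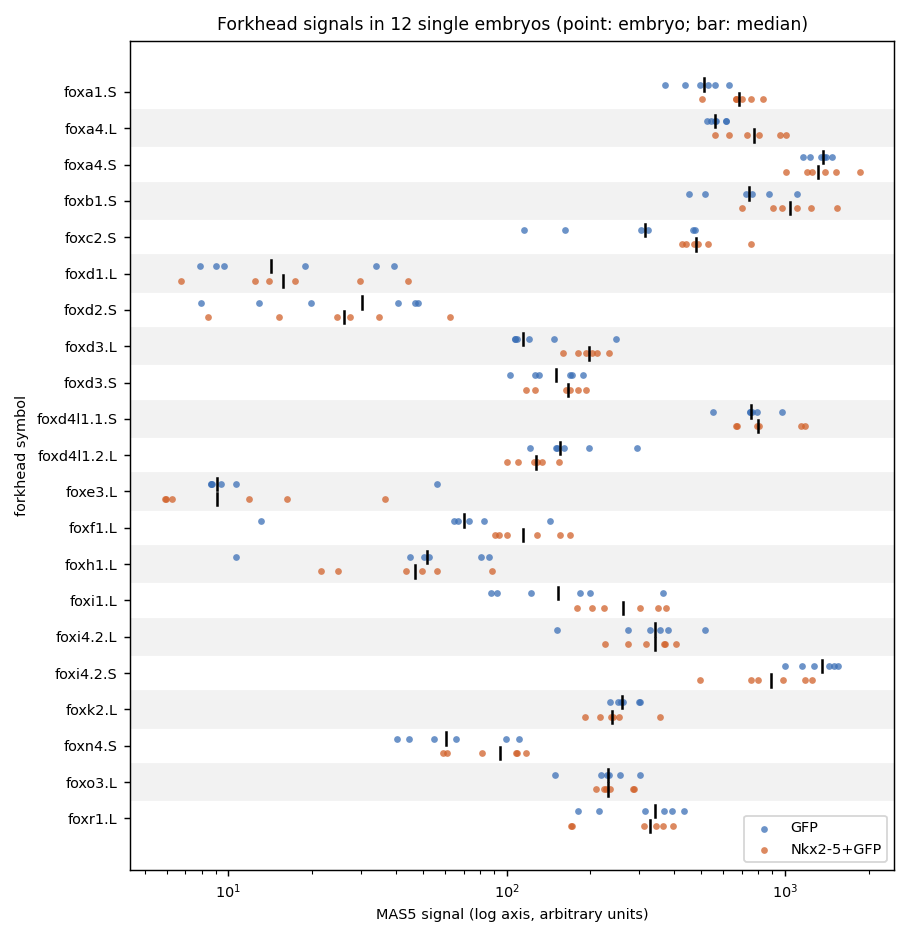
MAS5 signal on a log axis for each of the 21 forkhead symbols, with a point for each embryo and a bar at the median of the 6 embryos of a group (blue, GFP; orange, Nkx2-5+GFP). The groups overlap in every row, and foxc2.S and foxf1.L show GFP embryos far below the others, down to 115 and 13.1. Signals of different rows come from different probe sets and are not comparable in level.

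In the foxa subfamily, whose members are expressed in the organizer, midline and endoderm and can bind closed chromatin in mammals, foxa1.S and foxa4.L were higher and foxa4.S was close to level. The foxa1.S signal had its lowest, median and highest value at 370.4, 512 and 628 in GFP embryos and at 505, 685 and 837 in Nkx2-5+GFP embryos. All Nkx2-5+GFP embryos but 1 stood above every GFP embryo. On the log2 scale it differed by 0.45 (SE 0.14, 95% interval 0.15 to 0.74, limma adjusted p = 0.0700, 2-sided exact permutation p = 0.0130), and without Nkx2-5+GFP embryo 5 it was 0.53 and passed (limma adjusted p = 0.0248). foxa1.S passed in 2 of 22 alternatives and missed in the others, with a limma adjusted p of up to 0.153.

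foxa4, also known as pintallavis, is a gene of the organizer, notochord and floor plate. The foxa4.L copy ran from 527 through a median of 562 to 614 in GFP embryos, and from 562 through 771 to 1007 in Nkx2-5+GFP embryos. GFP embryos were tightly grouped, with an SD of 0.09 on the log2 scale against 0.33 in Nkx2-5+GFP embryos, of which 5 exceeded all GFP embryos. The log2 difference was 0.42 (SE 0.13, 95% interval 0.13 to 0.71, limma adjusted p = 0.0738). Without Nkx2-5+GFP embryo 6 it was 0.51 and passed (limma adjusted p = 0.0425). That was 1 of 22 alternatives, and foxa4.L missed in the others, with a limma adjusted p of up to 0.167. The foxa4.S copy had 1157, 1368 and 1480 in GFP embryos and 1009, 1320 and 1856 in Nkx2-5+GFP embryos. Its log2 difference was 0.02, with a 95% interval from -0.25 to 0.28, and the Nkx2-5+GFP embryos spread to both sides of the GFP range.

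foxb1.S belongs to the developing neural tissue. Its signal had its lowest, median and highest value at 451, 744 and 1101 in GFP embryos and at 704, 1039 and 1544 in Nkx2-5+GFP embryos. Of the Nkx2-5+GFP embryos, 3 stood above all GFP embryos and 5 above the GFP median. This gave a log2 difference of 0.56 (SE 0.21, 95% interval from 0.11 up to 1.0, limma adjusted p = 0.119), and without GFP embryo 5 it was 0.68 and passed (limma adjusted p = 0.0446). Without GFP embryo 3 it was 0.43 (limma adjusted p = 0.255), and foxb1.S passed in 1 of 22 alternatives.

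The foxd subfamily held 6 of the 21 symbols, whose differences lay between -0.42 and 0.50. foxd3, a neural crest specifier that also acts earlier in mesoderm formation in the frog, was present in both copies. The foxd3.L signal was 107, 115 and 247 in GFP embryos and 159, 198 and 233 in Nkx2-5+GFP embryos, again as lowest, median and highest. GFP embryo 4 alone exceeded the Nkx2-5+GFP embryos, and the other 5 GFP embryos, up to 148, lay below all of them. The log2 difference was 0.50 (SE 0.19, 95% interval 0.10 to 0.90, limma adjusted p = 0.118), and without GFP embryo 4 it was 0.66 and passed (limma adjusted p = 0.0324). Without GFP embryo 3 it was 0.45 (limma adjusted p = 0.234), and foxd3.L passed in 1 of 21 alternatives. foxd3.S ran from 103 to 189 in GFP and from 117 to 193 in Nkx2-5+GFP embryos, a log2 difference of 0.09 (95% interval -0.27 to 0.46).

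The foxd4l1 genes, known in the frog as FoxD5, keep neural precursors in an immature state. foxd4l1.2.L was lower in Nkx2-5+GFP embryos, with 100.2, 127 and 154 against 121, 156 and 293 in GFP embryos. Each Nkx2-5+GFP embryo lay below the GFP median, and the log2 difference was -0.42 (SE 0.19, 95% interval -0.82 to -0.03, limma adjusted p = 0.176). GFP embryo 3 held the 293, and without it the difference was -0.28 (limma adjusted p = 0.368). The related foxd4l1.1.S ran from 550.4 through 756 to 974 in GFP embryos and from 669 through 800.5 to 1182 in Nkx2-5+GFP embryos. Its log2 difference of 0.18 (95% interval -0.16 to 0.52) had the other sign. foxd1.L, known from forebrain and retina, and foxd2.S were dim, with no signal above 62.4 in any embryo. Their log2 differences were 0.04 (95% interval -0.56 to 0.65) and -0.01 (95% interval -0.68 to 0.65), wide intervals at this low signal.

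foxc2.S, a gene of paraxial and intermediate mesoderm, had the greatest difference of the members. Its signal was 115, 314 and 474 in GFP embryos and 428, 480.5 and 757 in Nkx2-5+GFP embryos. Each Nkx2-5+GFP embryo stood above the GFP median, and 3 above all GFP embryos. GFP embryos 3 and 6, at 162 and 115, were far below the other 4, which lay between 304 and 474. The log2 difference was 0.85, or 1.81-fold (SE 0.28, 95% interval 0.25 to 1.46, limma adjusted p = 0.0809, 2-sided exact permutation p = 0.0238). Without GFP embryo 5 it was 1.0 and passed (limma adjusted p = 0.0360). Without GFP embryo 3 it was 0.71 (limma adjusted p = 0.184), and foxc2.S passed in 1 of 22 alternatives.

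foxf1.L, a gene of lateral plate mesoderm and later of gut muscle, had 13.1, 70.1 and 143 in GFP embryos and 90.9, 114 and 169 in Nkx2-5+GFP embryos. The lowest value was that of GFP embryo 6 and the highest of that group GFP embryo 1. foxf1.L differed by 0.75 on the log2 scale (SE 0.31, 95% interval 0.09 to 1.41, limma adjusted p = 0.152), and at this level the size depends on the pseudocount, being 0.96 when 1 was added to the signal and 0.48 when 64 was. It also rests in part on GFP embryo 6, without which it was 0.46 (limma adjusted p = 0.255).

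**Figure D2:**
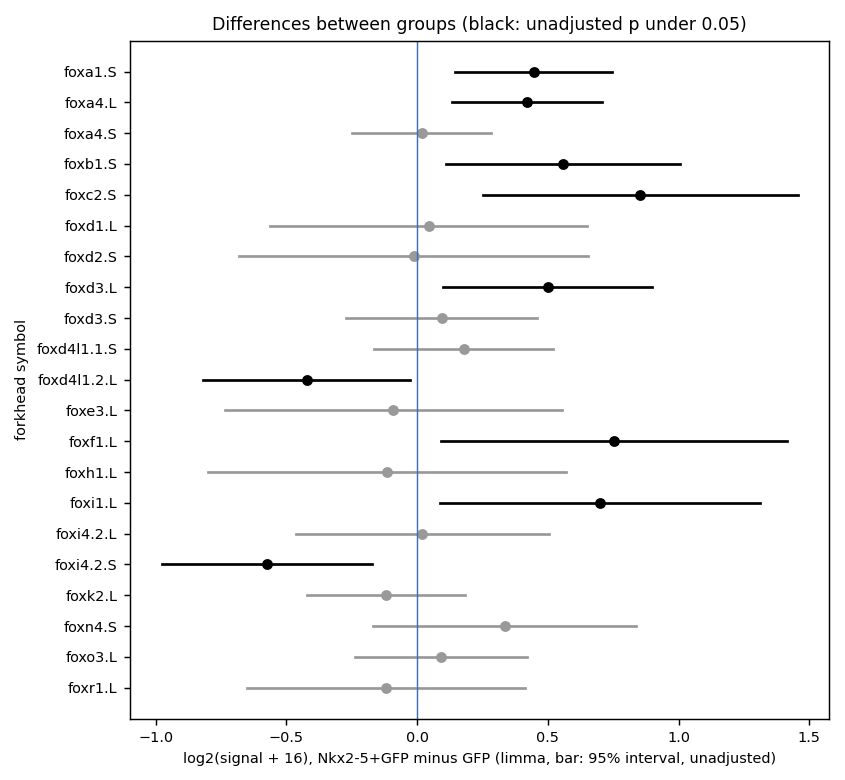
Difference of log2(signal + 16), Nkx2-5+GFP minus GFP, for each forkhead symbol, with limma's estimate as a point and its 95% interval as a bar, not adjusted for the number of probe sets. The 9 members at an unadjusted p under 0.05 are black, 7 of them to the right of 0 and 2 to the left, and none passed after adjustment.

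The foxi genes act in ectoderm, and none of the 3 measured here passed in the main analysis. foxi1.L, also called foxi1e or Xema, promotes ectodermal fate over mesoderm and endoderm in the frog blastula. Its signal was 87.9, 153 and 365 in GFP embryos and 180, 263 and 375 in Nkx2-5+GFP embryos. Each Nkx2-5+GFP embryo was above the GFP median, while GFP embryo 6, at 365, was nearly as high as the highest of them. Its log2 difference was 0.70 (SE 0.29, 95% interval 0.09 to 1.31, limma adjusted p = 0.151, 2-sided exact permutation p = 0.0693). Without GFP embryo 4 it was 0.55 (limma adjusted p = 0.281), and foxi1.L passed in 1 of 21 alternatives.

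foxi4.2.S was lower in Nkx2-5+GFP embryos. Its signals were 998, 1356 and 1550 in GFP embryos and 495, 892 and 1248 in Nkx2-5+GFP embryos. Each Nkx2-5+GFP embryo lay below the GFP median and 4 below all GFP embryos, with Nkx2-5+GFP embryo 3 lowest. The log2 difference was -0.57, or 0.671-fold (SE 0.19, 95% interval -0.98 to -0.17, limma adjusted p = 0.0795), and it passed in none of the alternatives. foxi4.2.L ran from 152 to 515 in GFP and from 225 to 405 in Nkx2-5+GFP embryos, a log2 difference of 0.02 (95% interval -0.46 to 0.50).

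The other subfamilies held 1 member each and none of these stood at an unadjusted p under 0.05. foxh1.L, the Smad2 partner, had 10.6, 51.5 and 86.3 in GFP embryos and 21.5, 46.7 and 88.9 in Nkx2-5+GFP embryos. The ranges overlapped almost wholly, with a log2 difference of -0.12 and a wide 95% interval, from -0.80 to 0.57, at this low signal. foxe3.L, a lens gene, was dim, with medians of 9.06 and 9.07 and a log2 difference of -0.09 (95% interval -0.74 to 0.56).

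foxn4.S, known from retinal progenitors, had 40.3, 60.4 and 110 in GFP and 59.2, 94.6 and 117 in Nkx2-5+GFP embryos, and 5 of 6 stood above the GFP median (log2 difference 0.34, 95% interval -0.17 to 0.84, and 0.21 with a pseudocount of 64). foxo3.L, a factor restrained by insulin signalling through Akt, had medians of 231 in both groups and a log2 difference of 0.09 (95% interval -0.24 to 0.42), with signals from 149 to 301 in GFP and from 209.7 to 286 in Nkx2-5+GFP embryos. foxk2.L, a broadly expressed factor, ran from 236 through 260.3 to 300.4 in GFP embryos and from 191 through 239 to 356 in Nkx2-5+GFP embryos (log2 difference -0.12, 95% interval -0.42 to 0.19). foxr1.L ran from 180.4 through 342 to 434 and from 169.8 through 328 to 397 (log2 difference -0.12, 95% interval -0.65 to 0.41). In these 4 genes the embryos of the groups were intermixed.

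Second probe sets exist for 3 symbols. That of foxk2.L differed by -0.58 and that of foxi4.2.L by -0.20, both dimmer than the member and neither passing (limma adjusted p = 0.267 and 0.766). The second probe set of foxd1.L had mean signals of 7.95 and 6.53. The 2 probe sets that list several forkhead symbols differed by 0.27 and 0.19 and did not pass (limma adjusted p = 0.415 and 0.454).

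A difference in 1 homeolog and not in the other is no difference between them without its own test. For the 3 pairs measured in both copies, the L minus S value on the log2 scale was compared between groups with limma over 1017 pairs on the array. None of the 3 passed, where 0.885% of all pairs did, and 2 of the 3 stood at an unadjusted p under 0.05, beside 17.6% of all pairs. The level of L against S itself has no meaning across probe sets, and only its shift between groups is read.

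The shift was 0.40 for foxa4 (SE 0.14, 95% interval 0.11 to 0.69, limma adjusted p = 0.139), from a mean of -1.20 in GFP to -0.80 in Nkx2-5+GFP embryos. All 6 Nkx2-5+GFP embryos stood above the GFP median and 4 above all GFP embryos. For foxi4.2 it was 0.60 (SE 0.22, 95% interval 0.12 to 1.07, limma adjusted p = 0.175), with 6 of 6 above the GFP median. For foxd3 it was 0.41 (SE 0.23, 95% interval -0.08 to 0.89, limma adjusted p = 0.366), with 5 of 6 above it. Whether probe sets of one copy also detect the other is not given in the sources used here.

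**Figure D3:**
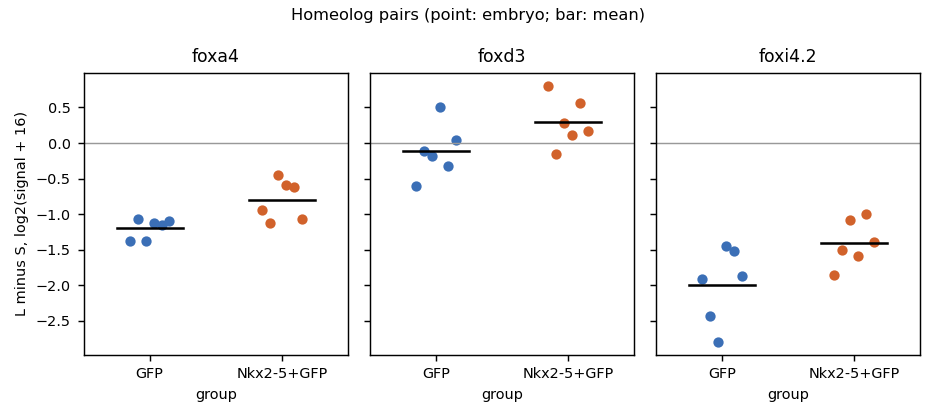
L minus S of log2(signal + 16) in each embryo (points) and its group mean (bars) for the 3 forkhead pairs measured in both copies. In each pair the Nkx2-5+GFP mean lies above the GFP mean, by 0.40, 0.41 and 0.60 for foxa4, foxd3 and foxi4.2, and the groups overlap.

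Across embryos, the copies of a pair were compared as deviations from their group means, over all 12 embryos. For foxa4 Pearson's r was 0.55 (permutation p = 0.190, adjusted over the 3 pairs 0.285) and Spearman's rho 0.54 (permutation p = 0.129, adjusted 0.285), and r was 0.49 without the 2 embryos farthest from the median of the L copy. For foxi4.2 r was 0.46 (permutation p = 0.0740, adjusted 0.222) and rho 0.42 (permutation p = 0.190, adjusted 0.285), and r was 0.15 without the 2 farthest embryos. For foxd3 r was 0.32 (permutation p = 0.408, adjusted 0.408) and rho 0.34 (permutation p = 0.326, adjusted 0.326), and r was 0.50 without them. None of the 3 relations passed. Within GFP embryos r was 0.19, 0.35 and 0.52 for foxa4, foxi4.2 and foxd3, and within Nkx2-5+GFP embryos 0.60, 0.76 and -0.20.

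Forkhead transcripts varied more among embryos of a group than the typical probe set. The residual SD on the log2 scale had a median of 0.43 over the 21 members, from 0.22 to 0.63, against 0.28 over all probe sets. The spread was wider for dim probe sets, and 14 of the 21 members lay below the median level. Below it, the median SD was 0.47 in members and 0.40 over all probe sets, and at or above it 0.31 and 0.20. Of the members, 15 had the larger SD in GFP embryos and 6 in Nkx2-5+GFP embryos, while 45.0% of all probe sets had the larger SD in GFP embryos. For foxc2.S the SD was 0.77 in GFP and 0.29 in Nkx2-5+GFP embryos, for foxf1.L 0.80 and 0.34, and for foxd3.L 0.43 and 0.17. foxa4.L and foxi4.2.S had the reverse order, with 0.09 and 0.24 in GFP and 0.33 and 0.48 in Nkx2-5+GFP embryos. These spreads were not tested against each other.

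The embryos at the ends of a group's range differed between members. GFP embryo 6 had the lowest signal of its group in 8 of the 21, foxa1.S, foxc2.S and foxf1.L among them, and the highest in 4, foxi1.L among them. Nkx2-5+GFP embryo 3 was the lowest of its group in 7 and Nkx2-5+GFP embryo 1 the highest in 7. These counts were made over the members only, so they do not show a trait particular to forkhead genes. foxb1.S and foxc2.S shared their low embryos in the GFP group, embryos 3 and 6, with foxb1.S at 451 and 514 there and between 725 and 1101 in the others. The same embryos were also below the other GFP embryos for foxa1.S (438 and 370.4), foxd3.S (126 and 103) and foxd4l1.1.S (750.5 and 550.4). For foxd3.S and foxd4l1.1.S, GFP embryo 2 was close to embryo 3, at 130 and 752.

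**Figure D4:**
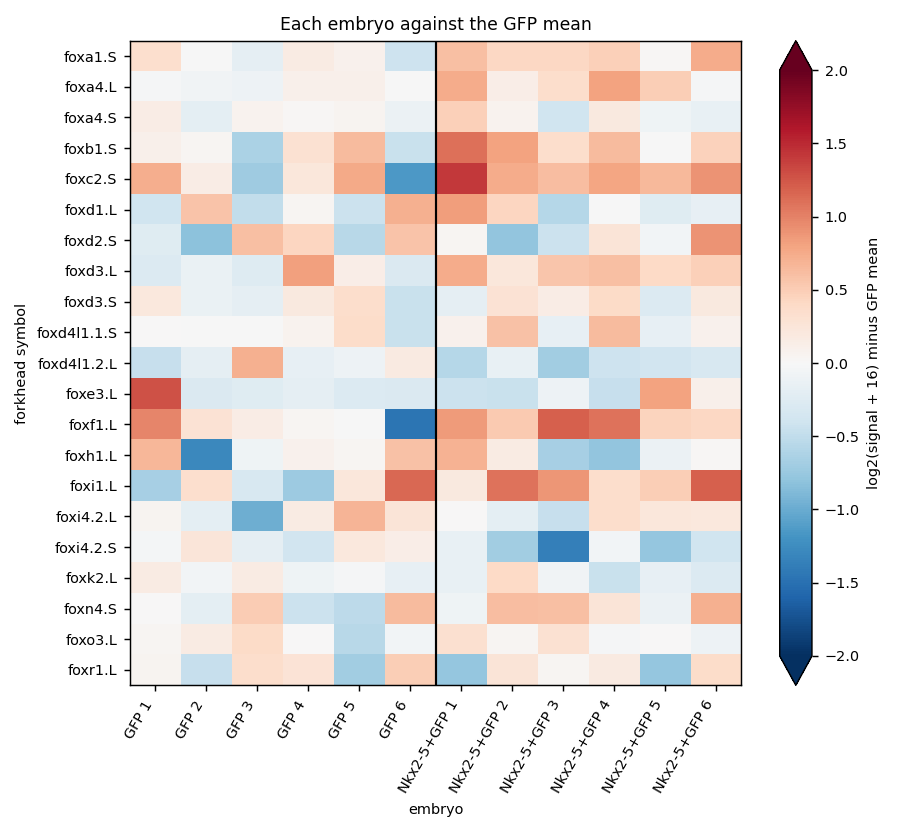
Log2(signal + 16) of each forkhead symbol in each embryo minus the mean of the 6 GFP embryos (red, higher; blue, lower), with GFP embryos on the left of the line. foxc2.S and foxf1.L are darkest blue in GFP embryo 6, and foxi4.2.S in Nkx2-5+GFP embryo 3.

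Calls were made among other genes of the settings in which forkhead factors act, and each count is given beside the share of all probe sets called in that direction. The lists were chosen with earlier results of these embryos known, so a share above that of all probe sets is no independent evidence. The first list held Nodal family genes and receptors, Smads, Foxh1 partners and targets, and other early genes. Being listed does not show that a gene responds to Nodal or Foxh1, which was not tested. Of 36 measured, 7 fell (19.4%, beside 3.26% of all probe sets), 0 rose and 29 did not pass. The median log2 difference was -0.25 against -0.02 over all probe sets. The calls with the smallest p were nodal3.1.L, which fell by 2.43, and mix1.L and mix1.S, homeobox genes induced by Nodal signals, with differences of -1.23 and -1.29. foxh1.L itself differed by -0.12 and did not pass. The brightest member of the list, the maternal T-box gene vegt.L, differed by -0.01. The 7 falls became 3 without GFP embryo 3 or Nkx2-5+GFP embryo 1, 4 without GFP embryo 4, GFP embryo 6, Nkx2-5+GFP embryo 2 or Nkx2-5+GFP embryo 6, and 12 without GFP embryo 5, and they became 4 without the intensity trend.

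The ectoderm list, the setting of foxi genes, had 8 of 19 measured symbols that rose (42.1%, beside 3.12% of all probe sets), 0 that fell and 11 that missed the threshold, with a median log2 difference of 0.52 against -0.02 over all probe sets. itln1.L, an intelectin gene of epidermis, and the keratin genes krt12.4.S and krt7.L rose by 2.49, 1.26 and 0.65. Beside these, foxi1.L differed by 0.70 and foxi4.2.S by -0.57, neither passing.

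In the list of organizer, midline and endoderm, the setting of foxa genes, 27 were measured and 22 did not pass. Of the rest, 2 rose (7.41%, beside 3.12% of all probe sets) and 3 fell (11.1%, beside 3.26%), and the median was -0.08 against -0.02. The midline ligand gene shh.L rose by 1.41 (95% interval 0.67 to 2.15). Its signals ran from 22.3 to 124 in GFP and from 134 to 388 in Nkx2-5+GFP embryos. The chemokine receptor genes cxcr4.L and cxcr4.S fell by 0.60 and 0.35. Without the intensity trend 0 rose and 1 fell. The rises became 0 without GFP embryo 3, GFP embryo 6 or Nkx2-5+GFP embryo 1, 2, 4 or 6 and 1 without GFP embryo 2 or Nkx2-5+GFP embryo 3, and the falls became 1 without GFP embryo 2, GFP embryo 4 or Nkx2-5+GFP embryo 1.

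Of 30 measured symbols of the neural plate and neural crest border, the setting of foxb and foxd genes, 3 rose (10%, beside 3.12% of all probe sets) and 26 did not pass, with a median of 0.29 against -0.02. The share that fell, 1 of 30 or 3.33%, was near the 3.26% of all probe sets. gbx2.2.L, a gene of the neural plate border, rose by 1.91 (95% interval 0.87 to 2.95). Its signals overlapped, from 23.2 to 441 in GFP and from 330 to 841 in Nkx2-5+GFP embryos. The ectodermal homeobox gene dlx3.S rose by 0.44, and the symbol that fell was sox3.L of neural precursors, at -0.51. The other copy, sox3.S, differed by -0.22 and sox2.L by 0.33, neither passing (limma adjusted p = 0.147 and 0.137). sox11.S, at -0.28, did not pass. Without the intensity trend 0 rose. The rises became 0 without GFP embryo 3, GFP embryo 4 or Nkx2-5+GFP embryo 1, 2 or 4 and 1 without GFP embryo 2, GFP embryo 6 or Nkx2-5+GFP embryo 6. The fall was lost when Nkx2-5+GFP embryo 1 or 6 was left out, or any GFP embryo except 1 and 5.

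Of 30 measured symbols of ventral and paraxial mesoderm, the setting of foxc and foxf genes, 4 rose (13.3%, beside 3.12% of all probe sets), 0 fell and 26 did not pass, with a median of 0.15 against -0.02. The muscle determination genes myf5.L and myod1.L rose by 1.13 and 0.84 and the ventral factor gene gata3.S by 0.96. id3.S, an inhibitor of bHLH factors, differed by 0.43 and did not pass. The rises became 2 without the intensity trend, 8 without GFP embryo 5, 7 without Nkx2-5+GFP embryo 5 and 2 without any other embryo except GFP embryo 1 and Nkx2-5+GFP embryo 3. 1 member fell without Nkx2-5+GFP embryo 4. As all 5 lists were chosen with earlier results of these embryos known, neither their shares nor their directions are independent evidence.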

How the data were processed

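The authors deposited 1 linear intensity per probe set and array, made with MAS5 per the submitters' processing notes. The sources used here do not give its version, scaling target or detection calls. Per the labels, 100 ng of total RNA per embryo went into 2-cycle biotin labelling. With 2% of probe sets trimmed at each end the mean was 1000.1 on each array, and medians lay between 302 and 346. Precision is limited by the number of arrays. Of 15611 probe sets, 120 controls were left out and 15491 tested with no filter.

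Signals were taken as log2(signal + 16), which understates changes of dim probe sets. They were fitted with limma 3.58.1 in R 4.3.3 (lmFit, eBayes with an intensity trend, 2-sided, no covariates, all 12 embryos). The fit was tested on simulated data with each probe set drawn independently, which does not cover shifts shared by the probe sets of an embryo. Single values were also compared with an exact permutation test over all 924 assignments, which cannot give a p below 0.00216. Correlations used 100000 permutations within groups. Plots were drawn with matplotlib 3.10.9.

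Names come from the array annotation, updated by gene number from a RefSeq table of Xenopus_laevis_v10.1: 9304 probe sets had 1 gene, 195 several, and 5992 are unnamed here. The gene number of 9227 was found there and 2 symbols were updated. Members and lists were chosen with earlier results of these data known. All 21 members are described. Of each list up to 3 called members by smallest p and the member of highest mean were named, and the germ layer markers named were chosen from a longer list.

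Alternatives were a pseudocount of 1 or 64, a filter at the median level, quantile or median scaling, eBayes without trend or robust, array weights, a replicate block, the mean of a symbol's probe sets, and leaving out each embryo. Array pairs correlated between 0.954 and 0.982, so no array repeated another.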

Additional observations from a re-analysis of the deposited data

Results flagged for a closer look

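Each of the 21 forkhead symbols was looked at in both groups for an embryo far from the other 5 on the log2 scale, and 2 of 42 stood out, where chance gives about 1 in 20. foxe3.L had a signal of 56.4 in GFP embryo 1 and between 8.65 and 10.6 in the other GFP embryos. foxc2.S had 757 in Nkx2-5+GFP embryo 1 and between 428 and 527 in the other Nkx2-5+GFP embryos.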

How the results depend on the processing

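The 9 forkhead symbols at an unadjusted p under 0.05 kept their sign in each of the alternatives, up to 22, that tested them, and 6 of them passed in at least 1. These 9 were chosen by that p in the same embryos, so a kept sign was close to fixed beforehand. How many of all probe sets passed in at least 1 alternative was not counted. The count of forkhead symbols called higher, 0 in the main analysis, was 1 without the dimmer probe sets (foxa1.S, limma adjusted p = 0.0489) and 1 with a replicate block (foxi1.L, limma adjusted p = 0.0498). With the block, 411 of all probe sets were called higher, against 483 in the main analysis. The forkhead count ran from 0 to 2 when 1 embryo was left out, while higher calls over all probe sets ran from 179 to 700. foxb1.S and foxc2.S passed without GFP embryo 5 (limma adjusted p = 0.0446 and 0.0360), foxd3.L without GFP embryo 4 (0.0324), foxa1.S without Nkx2-5+GFP embryo 5 (0.0248) and foxa4.L without Nkx2-5+GFP embryo 6 (0.0425). Each of these symbols passed in at most 2 alternatives, and other removals weakened them, with a limma adjusted p of up to 0.255 for foxb1.S. The count called lower was 0 in each alternative, and so was the count of homeolog pairs. Deviations of same-numbered embryos had low correlations (from -0.15 to 0.13). Compared with the 6 embryos of the other group, 5 of 12 embryos correlated best with their own number. Whether the numbers pair the embryos is therefore not settled, and the main fit used no pairing.

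Over all probe sets, 483 higher and 505 lower calls became 254 and 183 without the intensity trend, and ran from 179 to 700 and from 106 to 842 when 1 embryo was left out. Without the trend the lists had 4 lower for Nodal, 0 higher and 1 lower for organizer and endoderm, 0 higher for neural border and 2 higher for mesoderm, and the organizer list had 1 higher with array weights and with quantile normalization. Leaving out 1 embryo gave 3 to 12 lower for Nodal, 0 to 3 higher and 1 to 4 lower for organizer and endoderm, 6 to 8 higher for ectoderm, 0 to 3 higher and 0 to 1 lower for neural border, and 2 to 8 higher and 0 to 1 lower for mesoderm.

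Of the 12 other members, whose 95% intervals include 0, 8 changed sign in some alternative. foxi4.2.L was -0.081 with array weights and -0.088 as the mean of its probe sets, foxd1.L -0.019 as the mean of its probe sets, and foxd2.S 0.021 with median scaling. The cause was not tested. Leaving out 1 embryo gave -0.074 to 0.10 for foxa4.S, -0.11 to 0.19 for foxd1.L, -0.20 to 0.14 for foxd2.S, -0.27 to 0.16 for foxe3.L, -0.37 to 0.019 for foxh1.L, -0.18 to 0.16 for foxi4.2.L, -0.019 to 0.17 for foxo3.L and -0.26 to 0.014 for foxr1.L. Of the members, 5 had mean signals under 100 in both groups, which limits what the array can show for them.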
